A study of Mus musculus with 24 samples.

Results

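The comparison set the hippocampus of sham-injured mice given recombinant erythropoietin (EPO) against that of sham-injured mice given none, and asked which classes of genes differed and by how much. It used 12 of the 24 arrays of the series, chosen by their labels: the 6 with titles that start Sham_Y, labelled sham-injured and treated with high-dose recombinant erythropoietin (sham EPO), and the 6 with titles that start Sham_N, labelled sham-injured with no treatment (sham none). All 12 mice were of strain BALB-c and 10 days old, and each array holds total RNA of the right hippocampus of 1 mouse, the side on which the injured mice of the series had the carotid artery tied. The other 12 arrays are 6 labelled injured and treated with the same agent (injured EPO) and 6 labelled injured with no treatment (injured none), and they entered the fit only for its estimate of spread and for the test of a difference between the pairs. The labels do not state the EPO dose in numbers, when it was given or what the sham operation involved.

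The titles can also be read another way. If their first word stands for the treatment and their letter for injury, Sham_Y is an injured mouse without EPO and the comparison below is one of injury without EPO, while the mice labelled injured none (titles that start Epo_N) become the sham mice with EPO. Groups are named as labelled throughout, and no measurement used here settles the reading. Under the other reading, the difference between Epo_N and Sham_N arrays would answer the question, and the limma fit called 0 of 23238 rows there, with 1803 rows at an unadjusted p under 0.05 and a smallest adjusted p of 0.234.

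Erythropoietin is the hormone that drives red cell production. Its receptor signals through the kinase JAK2 and the transcription factor STAT5, and in the newborn brain the hormone is studied as a protective treatment after loss of oxygen and blood flow. The hippocampus holds pyramidal and granule neurons, whose excitability rests on voltage-gated channels and on glutamate and GABA receptors, and microglia, the resident phagocytes, which carry pattern receptors, Fc receptors and lysosomal enzymes.

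Each array gave 23238 log2 expression values, of which 14939 rows carried 1 gene symbol, for 14807 genes. Medians ran from 5.30 to 5.43 in sham EPO arrays and from 5.12 to 5.25 in sham none arrays, so the medians of the groups did not overlap. Centring each array on its median lowered every difference by 0.17, and values below are as deposited unless stated. The median SE of a difference was 0.14 on the log2 scale, and the number of arrays limits the precision. Each p-value sets a difference against the spread between arrays of different mice, pooled over all 4 groups of the series.

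Over all rows 4445 passed the threshold of an adjusted p under 0.05 (19.1%), 2679 higher and 1766 lower in sham EPO. That split was 60.3% rises as deposited, 49.2% after quantile normalization and 29.5% after centring, so which direction held more genes depended on the scaling. Among the 14807 genes, 3871 passed (26.1%): 2344 rose (15.8%) and 1527 fell (10.3%). All 6 sham EPO arrays lay above all 6 sham none arrays in 1606 genes (10.8%) and below them in 810 genes (5.47%). These shares are the background for every class below, and they are not matched for level.

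Mid-size changes, from 1.5-fold to under 4-fold, made up 1887 of the 3871 genes, against 1849 smaller changes and 135 larger ones. Of the mid-size genes 1186 rose and 701 fell, against 987 and 866 after quantile normalization and 814 and 1299 after centring, so the majority turned round with centring. As deposited, 740 rises and 548 falls lay between 1.5-fold and 2-fold, 446 rises and 153 falls between 2-fold and 4-fold, and 132 rises and 3 falls at 4-fold or more. Those 3 falls, singled out with their values seen, were Fibcd1 (-2.12 ± 0.20), Neurod6, a factor of pyramidal neurons (-2.31 ± 0.46), and Itgbl1 (-2.27 ± 0.30). Neurod6 varied widely between sham EPO arrays, at 7.7, 5.83, 9.25, 8.85, 9.13 and 5.98, against 9.76 to 10.39 in sham none arrays. The groups did not overlap in 964 of the mid-size rises and 498 of the mid-size falls. Quantile normalization kept 1162 of the 1186 rises and 701 of the 701 falls past the threshold with the same sign, and centring kept 1122 and 701. The title letter code, whose meaning the labels do not give, kept 1035 rises and 639 falls when it was a fixed block. Within code 3D alone, with 2 sham EPO and 2 sham none arrays that are part of the fit above, 1185 rises and 700 falls kept their sign, and 367 and 218 passed the threshold. In the genes whose groups did not overlap that sign was fixed.

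Level and direction went together. Of the 3702 genes of lowest mean level, 7.51% passed, with 260 rises and 18 falls, while of the 3702 of highest mean level 39.0% passed, with 445 rises and 999 falls. The median level was 6.25 among mid-size rises, 8.44 among mid-size falls and 6.28 over all genes. The genes of highest level began at a mean of 7.84. Many classes below had median list means above that in sham none arrays. They were 8.66 for splicing factors, 8.48 for transporters, 9.08 for glycolysis and 10.14 for the V-ATPase. Vesicle release stood at 9.13, postsynaptic scaffold at 8.99, ionotropic glutamate receptors at 8.73 and tubulins and microtubule genes at 9.71. Second messenger enzymes stood at 8.99, synaptic adhesion at 8.50, sodium, calcium and HCN channels at 8.15 and potassium channels at 7.94. Some classes with mainly rises were above it too, such as lysosomal hydrolases at 8.19 and actin regulators at 8.04. For such classes the share of falls over all genes is a low background, and a share matched for level was not computed. RMA values compress differences near the background, which bears on the low genes, and the part of this in the low share was not tested.

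**Figure D1:**
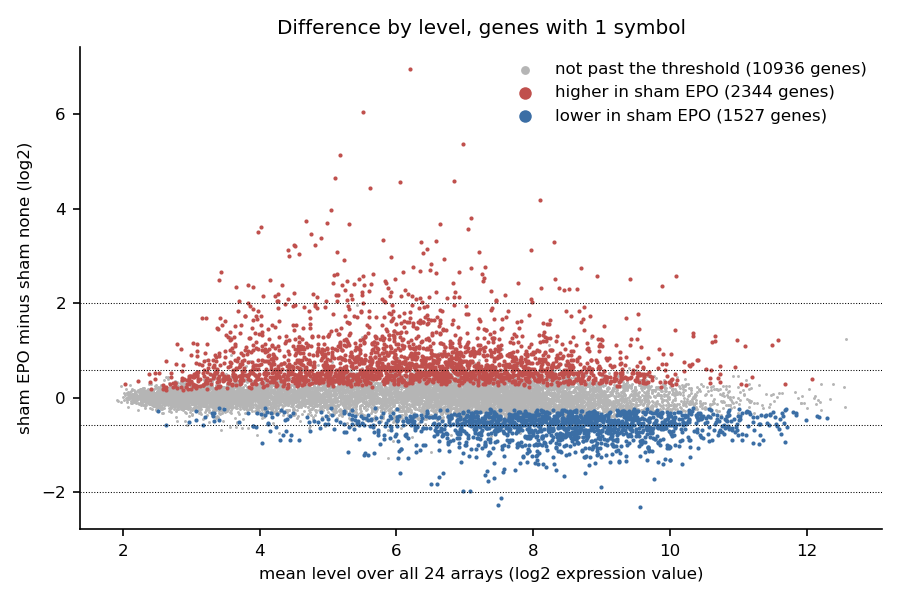
Difference between sham EPO and sham none (y axis, log2) against mean level over all 24 arrays (x axis, log2 expression value) for 14807 genes, 1 point a gene, with dotted lines at 1.5-fold and 4-fold. Rises spread over low and middle levels, and falls gather at the right, with 999 of the 1527 among the 3702 genes of highest mean level.

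The mid-size rises were named by the smallest p-values among those whose groups did not overlap. Slc7a7, a light chain for cationic amino acid exchange that macrophages use, ran from 5.36 to 6.01 (median 5.92) in sham EPO arrays, against 3.75 to 3.99 (median 3.81) in sham none arrays. Tgif1, a homeodomain repressor in the TGF-beta pathway, ran from 5.15 to 6.34 (median 5.90) in sham EPO arrays, against 3.74 to 4.02 (median 3.90) in sham none arrays. Igfbp7, a secreted protein of vessels that binds insulin-like growth factors, ran from 9.96 to 10.29 (median 10.06) in sham EPO arrays, against 8.0 to 8.40 (median 8.10) in sham none arrays. By that rule every sham EPO array lay above every sham none array in each gene, and the 3 differences were 1.95 ± 0.14 (SE; limma adjusted p = 3.19e-09), 1.97 ± 0.15 (7.08e-09) and 1.92 ± 0.15 (8.71e-09).

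Casp4, the inflammatory caspase that senses bacterial lipopolysaccharide in the cytosol, ran from 3.56 to 4.09 (median 3.95) in sham EPO arrays, against 2.65 to 2.83 (median 2.71) in sham none arrays. Both ranges lay low on the array's scale, and they did not touch: the difference was 1.14 ± 0.09 (limma adjusted p = 7.08e-09). Cd53, a leukocyte tetraspanin, ran from 9.50 to 9.86 (median 9.57) in sham EPO arrays, against 7.53 to 8.23 (median 7.83) in sham none arrays. P2ry6, the microglial receptor for UDP that triggers phagocytosis, ran from 6.76 to 7.45 (median 7.04) in sham EPO arrays, against 5.17 to 5.44 (median 5.29) in sham none arrays. Cd53 and P2ry6 were 3.55-fold and 3.39-fold higher (adjusted p = 1.43e-08 and 1.44e-08). Clec4n, a C-type lectin of myeloid cells also called dectin-2, was 3.55-fold higher, Tmem176b, a membrane protein of antigen-presenting cells, 2.75-fold, and Samsn1, an adaptor of haematopoietic cells, 2.75-fold.

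The tetraspanins Tspan4 and Cd151 differed by 1.25 ± 0.10 and 1.59 ± 0.14, and Cast, the inhibitor of the calpain proteases, by 1.13 ± 0.10. Gimap4, a GTPase of lymphocytes and endothelium, differed by 1.48 ± 0.12, and Tram2, which takes part in collagen synthesis at the endoplasmic reticulum, by 1.17 ± 0.10. Irf8, a transcription factor that microglia need to develop, ran from 6.20 to 6.52 (median 6.40) in sham EPO arrays, against 4.53 to 5.02 (median 4.79) in sham none arrays, a difference of 1.60 ± 0.14 (adjusted p = 1.75e-08). In bulk tissue fewer cells of a type and less RNA per cell cannot be told apart, and the same holds for more.

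The mid-size falls were named by the same rule. Paqr9, a membrane protein of the progestin and adiponectin receptor family, ran from 7.46 to 7.81 (median 7.75) in sham EPO arrays, against 8.59 to 8.88 (median 8.70) in sham none arrays. Chrna7, the alpha7 nicotinic acetylcholine receptor, ran from 6.51 to 7.33 (median 6.65) in sham EPO arrays, against 7.97 to 8.33 (median 8.17) in sham none arrays. Neto1, an auxiliary subunit of kainate receptors, ran from 8.85 to 9.73 (median 9.11) in sham EPO arrays, against 10.49 to 10.76 (median 10.56) in sham none arrays. The differences were -1.01 ± 0.08 (limma adjusted p = 6.08e-09), -1.39 ± 0.13 (3.43e-08) and -1.40 ± 0.13 (3.78e-08).

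Hpca, the neuronal calcium sensor hippocalcin, ran from 7.99 to 8.96 (median 8.58) in sham EPO arrays, against 9.78 to 10.49 (median 10.26) in sham none arrays. Kcnq3, a subunit of the M-type potassium channel, ran from 6.78 to 7.61 (median 7.20) in sham EPO arrays, against 8.40 to 8.94 (median 8.69) in sham none arrays. Fgf13, which binds sodium channels inside the cell, ran from 8.43 to 9.36 (median 8.80) in sham EPO arrays, against 10.08 to 10.41 (median 10.24) in sham none arrays. These were 3.31-fold, 2.77-fold and 2.64-fold lower in sham EPO. Nefl, the light chain of neurofilament, differed by -1.07 ± 0.10 (adjusted p = 5.57e-08), and the junctophilins Jph4 and Jph1, which tie the endoplasmic reticulum to the plasma membrane, by -0.84 ± 0.08 and -1.07 ± 0.10. The remaining falls of the rule ran from -0.89 to -1.40: Plppr4 and Adam23, membrane proteins of synapses and axons, Slc7a10, a carrier of D-serine and small neutral amino acids, Cds1, an enzyme of phosphoinositide synthesis, and Mmd and Tmem150c, both membrane proteins.

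**Figure D2:**
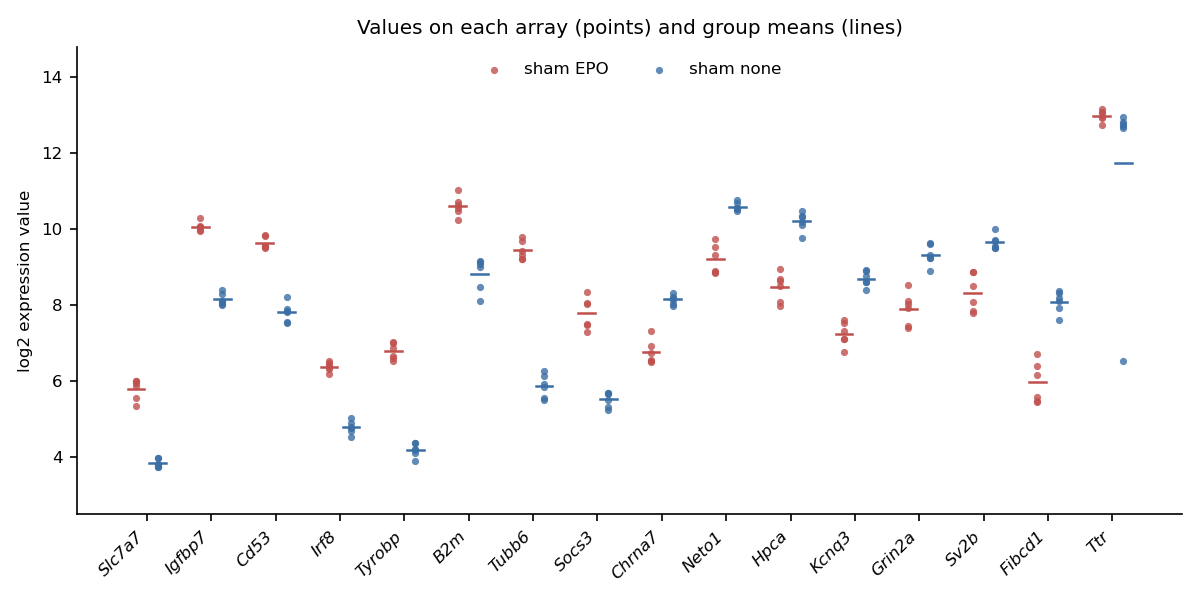
Log2 expression value (y axis) on each of the 6 sham EPO arrays (red, left) and the 6 sham none arrays (blue, right) for 16 genes, with lines at the group means. The groups do not overlap in any gene shown but Ttr, which 1 sham none array had at 6.52.

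The 41 functional classes, with the 10 marker lists, held 997 measured genes, of which 541 passed the threshold, 309 higher and 232 lower. After centring 251 were higher and 327 lower. Classes of immune and degradative proteins held nearly no falls and classes of synaptic proteins nearly no rises, as the plot of classes shows. Of the 1887 mid-size genes 336 belonged to a list.

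**Figure D3:**
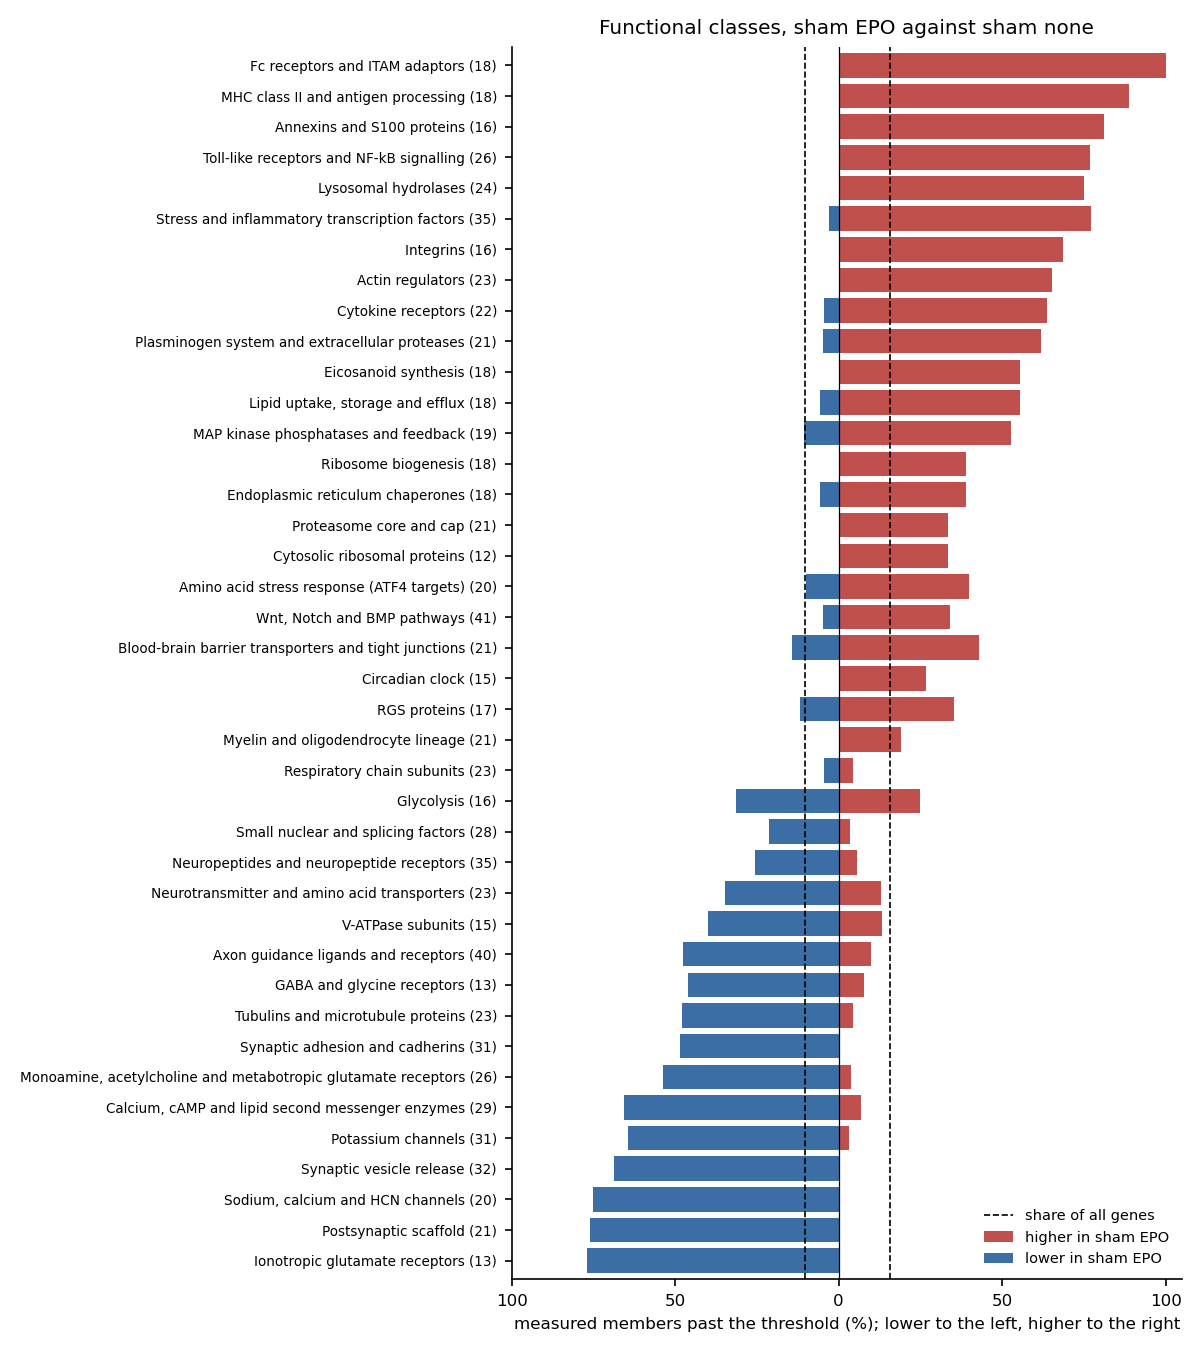
Share of measured members (x axis, percent) that passed the threshold as higher (red, to the right) or lower (blue, to the left) in sham EPO, for 40 functional classes with the number of measured members in brackets. Dashed lines mark the shares over all 14807 genes, 15.8% higher and 10.3% lower, not matched for level.

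Pattern recognition genes were higher. Of 26 measured members of the Toll-like receptor and NF-kappaB class, 20 rose and 0 fell, with a median difference of 0.89, against 15.8% rises, 10.3% falls and a median of 0.035 over all genes. Cd14, the lipopolysaccharide co-receptor, ran from 6.38 to 7.06 (median 6.58) in sham EPO arrays, against 3.27 to 3.61 (median 3.43) in sham none arrays. Tlr13, an endosomal receptor for bacterial ribosomal RNA, ran from 6.94 to 7.90 (median 7.23) in sham EPO arrays, against 3.95 to 4.88 (median 4.35) in sham none arrays. Tlr7, its counterpart for single-stranded RNA, ran from 6.84 to 7.74 (median 7.12) in sham EPO arrays, against 3.92 to 5.11 (median 4.62) in sham none arrays. The 3 genes were 9.42-fold, 7.52-fold and 5.92-fold higher in sham EPO, each without overlap. The adaptor Myd88 differed by 2.08 ± 0.25 and the NF-kappaB inhibitor Nfkbia by 1.44 ± 0.20, whereas Tlr9, Nod2 and Tnfaip3 did not pass the threshold (differences -0.10, -0.03 and 0.39).

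Of 22 cytokine receptor genes 14 rose and 1 fell, with a median of 1.03. Tnfrsf1a, the main receptor for tumour necrosis factor, ran from 8.39 to 8.85 (median 8.63) in sham EPO arrays, against 5.60 to 6.21 (median 6.01) in sham none arrays. Il4ra, the shared chain for interleukins 4 and 13, ran from 7.20 to 7.98 (median 7.59) in sham EPO arrays, against 5.01 to 5.32 (median 5.16) in sham none arrays. They were 6.3-fold and 5.38-fold higher, and Tnfrsf12a, the TWEAK receptor, 4.42-fold. The fall was Ifngr2, a chain of the interferon-gamma receptor, at -0.37 ± 0.08 (limma adjusted p = 0.000939), while the other chain, Ifngr1, rose by 1.10 ± 0.13. Csf1r, the receptor on which microglia depend, did not pass (0.27 ± 0.11, adjusted p = 0.0924).

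All 18 measured Fc receptor and ITAM adaptor genes rose, with the groups apart in all 18 and a median of 1.54. Fcer1g, the signalling chain shared by Fc receptors, ran from 8.53 to 9.37 (median 9.08) in sham EPO arrays, against 5.34 to 6.71 (median 6.41) in sham none arrays. Tyrobp, the adaptor of Trem2 also called DAP12, ran from 6.54 to 7.03 (median 6.77) in sham EPO arrays, against 3.90 to 4.38 (median 4.20) in sham none arrays. Fcgr1, the high-affinity receptor for immunoglobulin G, ran from 6.64 to 7.94 (median 7.12) in sham EPO arrays, against 4.92 to 5.28 (median 5.13) in sham none arrays. Those were 6.8-fold, 6.03-fold and 4.24-fold higher. Lower in the same cascade, the kinases Syk and Btk rose by 0.51 ± 0.11 and 0.49 ± 0.08, the smallest differences of the class.

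Antigen presentation genes were also higher, with 16 rises and 0 falls among 18 measured genes and a median of 0.79. B2m, the light chain of class I molecules, ran from 10.25 to 11.04 (median 10.59) in sham EPO arrays, against 8.12 to 9.16 (median 9.05) in sham none arrays. Ctss, cathepsin S, which trims the invariant chain in class II loading, ran from 9.37 to 10.03 (median 9.65) in sham EPO arrays, against 7.96 to 8.72 (median 8.17) in sham none arrays. The groups did not overlap in either gene (differences 1.78 ± 0.22 and 1.44 ± 0.18). Erap1, a peptidase that trims class I ligands, was 2.66-fold higher, and the class II chains H2-Aa and H2-Ab1 differed by 0.32 ± 0.10 and 0.65 ± 0.13. H2-Aa did not pass after centring (0.15, limma adjusted p = 0.295) or with the 12 sham arrays alone (adjusted p = 0.0897). H2-DMa and Cd40 did not pass.

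Promoter sequence was read for the antigen presentation and Fc receptor genes because both classes moved as blocks and Spi1 and Irf8, which code for factors that bind PU.1 and interferon response motifs, were among the rises. The windows were RefSeq promoters of GRCm38.p6, from 250 bases before to 50 after each start site, for 11855 of the 14807 genes, searched on both strands. The interferon response motif (GAAA, any 2 bases, GAAA) stood in 4 of 12 antigen presentation genes with a promoter (Ctss, B2m, Erap1 and Psme1), in 5.35% of all genes that rose, in 3.19% of those that fell and in 3.8% of all genes. The PU.1 motif GAGGAAGT stood in 3 of 17 Fc receptor and ITAM genes (Fcgr4, Vav1 and Cd300lf), in 4.87% of the genes that rose, in 2.18% of those that fell and in 3.27% of all genes. Across the 9 classes searched the PU.1 motif also stood in 4 of 21 Toll-like receptor and NF-kappaB genes, in 1 antigen presentation gene and in 1 postsynaptic scaffold gene, and in 0 genes of the other 5 classes. The interferon response motif stood in at least 1 gene of every class, among them 3 of 24 second messenger genes and 2 of 22 vesicle release genes, classes that fell. A gene could have several windows, on average 1.08 in antigen presentation, 1.12 in Fc receptor, 1.41 in vesicle release and 2.0 in second messenger genes. The average was 1.28 for genes that rose, 1.41 for those that fell and 1.25 for all. More windows give more room for a match, and the shares are not matched for this. A match describes these letters in this window and is not evidence of binding. The stretches before the start site of 4 of these genes are printed 5′ to 3′ on the plus strand, with the motif in capitals, in Fcgr4 as its reverse complement.
Ctss, chr3:95526725-95526785: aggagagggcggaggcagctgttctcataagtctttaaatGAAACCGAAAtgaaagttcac
B2m, chr2:122147508-122147607: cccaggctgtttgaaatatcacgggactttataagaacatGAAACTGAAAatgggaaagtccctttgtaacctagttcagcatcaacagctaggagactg
Fcgr4, chr1:171018862-171018925: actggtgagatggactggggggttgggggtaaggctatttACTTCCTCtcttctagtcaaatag
Vav1, chr17:57279049-57279099: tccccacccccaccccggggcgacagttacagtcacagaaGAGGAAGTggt

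Fcgr4, an Fc receptor of myeloid cells, was 4.11-fold higher in sham EPO and Vav1, a signalling protein of blood cells, 3.55-fold. Searches for the motifs of NF-kappaB (GGG, any 5 bases, CC), of CREB (TGACGTCA) and of AP-1 (TGANTCA) gave 72.1%, 2.62% and 9.1% of the genes that rose, against 70.8%, 4.12% and 6.13% of those that fell and 64.4%, 2.73% and 8.07% of all genes. The first of these is short on fixed letters and matched most promoters.

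Genes for adhesion to matrix and for its digestion were higher as well. Of 16 integrin genes 11 rose and 0 fell (median 0.46). Itga5, the fibronectin receptor chain, ran from 6.78 to 7.93 (median 7.42) in sham EPO arrays, against 4.72 to 5.14 (median 4.93) in sham none arrays. Itgb2 and Itgam, the chains of complement receptor 3, were 3.95-fold and 2.94-fold higher. Of 21 genes for extracellular proteases and their inhibitors 13 rose and 1 fell. Timp1, the metalloproteinase inhibitor, ran from 7.50 to 8.64 (median 8.28) in sham EPO arrays, against 3.30 to 3.90 (median 3.56) in sham none arrays. Timp1 had the largest difference of the class, 4.65 ± 0.42 (limma adjusted p = 2.88e-08). Serping1, the inhibitor of complement C1, was 4.76-fold higher and Mmp12, the macrophage elastase, 6.28-fold, whereas Mmp17, a membrane metalloproteinase, fell by 0.71 ± 0.13.

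Lysosomal hydrolase genes were higher, whereas genes for the proton pump V-ATPase went both ways. Of 24 hydrolase and lysosomal membrane genes 18 rose and 0 fell, with a median of 0.89. Ctsz, a cathepsin of phagocytes, ran from 10.39 to 10.70 (median 10.57) in sham EPO arrays, against 7.56 to 8.27 (median 8.07) in sham none arrays. Ctsc, which activates granule proteases, ran from 8.70 to 9.54 (median 9.37) in sham EPO arrays, against 6.29 to 7.23 (median 6.89) in sham none arrays. The groups were apart, at 5.92-fold and 5.38-fold, and Gusb, beta-glucuronidase, was 3.12-fold higher. Of 15 subunits of the V-ATPase, the proton pump that acidifies lysosomes and synaptic vesicles, 2 rose and 6 fell, and 12 fell after centring. The rises were Atp6v0e (1.11 ± 0.18) and Atp6v0d2 (0.50 ± 0.12), and the largest falls were Atp6v0a1 (-0.59 ± 0.09) and the neuronal subunit Atp6v1g2 (-0.54 ± 0.12).

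Lipid handling genes were among the largest differences. Plin2, which coats lipid droplets, ran from 10.56 to 11.05 (median 10.68) in sham EPO arrays, against 6.05 to 6.83 (median 6.65) in sham none arrays. Msr1, the macrophage scavenger receptor, ran from 6.27 to 6.76 (median 6.59) in sham EPO arrays, against 2.85 to 3.01 (median 2.91) in sham none arrays. Cd36, a receptor for fatty acids and oxidised lipoproteins, ran from 5.18 to 6.09 (median 5.43) in sham EPO arrays, against 2.97 to 3.46 (median 3.12) in sham none arrays. These were 18.2-fold, 12.2-fold and 5.08-fold higher. In all, 10 of 18 members of that class rose and 1, the reelin receptor Vldlr, fell by 0.39 ± 0.10. Of 18 genes for eicosanoid synthesis 10 rose and 0 fell, led by Hpgds, which makes prostaglandin D2 in haematopoietic cells (2.16 ± 0.31), Pla2g4a, the phospholipase that frees arachidonic acid (2.01 ± 0.19), and Alox5ap, the helper of 5-lipoxygenase (1.60 ± 0.21).

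Among cytoskeletal genes, actin regulators gave rises and no falls, and tubulin and microtubule genes gave more falls than rises. Of 23 actin regulators 15 rose and 0 fell: Lcp1, the bundling protein of leukocytes, ran from 7.70 to 8.49 (median 8.09) in sham EPO arrays, against 5.10 to 5.88 (median 5.36) in sham none arrays. Msn, moesin, which ties actin to the membrane, was 4.98-fold higher and Capg, a capping protein, 4.58-fold. Of 16 annexin and S100 genes 13 rose and 0 fell, with a median of 1.16. Anxa1, an anti-inflammatory annexin, ran from 7.58 to 8.67 (median 7.87) in sham EPO arrays, against 3.61 to 5.39 (median 4.63) in sham none arrays. S100a6 and Anxa2, calcium-binding proteins of dividing and reactive cells, were 10-fold and 7.69-fold higher.

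Of 23 tubulin and microtubule genes 1 rose and 11 fell. After centring 19 fell, whereas 6, 5, 6 and 6 fell without sham EPO replicate 3 and sham none replicates 2, 3 and 6 in turn. The rise was Tubb6, a beta tubulin that neurons use little, which ran from 9.22 to 9.80 (median 9.36) in sham EPO arrays, against 5.50 to 6.29 (median 5.89) in sham none arrays. The groups were far apart, at 11.9-fold. Falls were smaller: Tuba4a differed by -0.89 ± 0.15, Tubb2a by -0.95 ± 0.31 and Kif5c, a neuronal kinesin, by -0.57 ± 0.10. Tubb2a ranged from 7.44 to 9.58 within sham EPO and overlapped sham none, in which it ranged from 9.36 to 10.19.

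Of 35 transcription factor genes of stress and inflammation 27 rose and 1 fell. Atf3, a stress-induced repressor, ran from 6.43 to 7.71 (median 7.27) in sham EPO arrays, against 3.25 to 3.67 (median 3.46) in sham none arrays. Fos, the immediate-early gene, ran from 7.16 to 7.89 (median 7.45) in sham EPO arrays, against 4.92 to 5.40 (median 5.29) in sham none arrays. Spi1, the PU.1 factor of myeloid cells, ran from 6.61 to 7.54 (median 7.01) in sham EPO arrays, against 4.33 to 5.29 (median 4.84) in sham none arrays. No array of either group crossed into the other in any of the 3, and they were 13.3-fold, 4.98-fold and 4.76-fold higher. Egr3, an activity-dependent factor of neurons, fell by 0.89 ± 0.19 with partial overlap, and Egr1 did not pass (0.39 ± 0.15). Of 19 feedback genes of the MAP kinase pathway 10 rose and 2 fell, against 6 and 4 after centring. Gadd45g, Gadd45b and Dusp1, which curb or respond to stress kinases, differed by 1.96, 1.48 and 1.30, and the falls were Spred2 (-0.79) and Dusp8 (-0.56).

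Respiratory chain genes gave few calls and glycolytic genes went both ways. Of 23 respiratory chain subunits 1 rose and 1 fell, Sdhc of complex II (0.26 ± 0.07, and 0.09 with a limma adjusted p = 0.409 after centring) and Ndufs1 of complex I (-0.44 ± 0.14), with a median of 0.02 that turned to -0.15 after centring. The counts were 3 and 1 after quantile normalization and 0 and 6 after centring, and Ndufs1 did not pass without sham EPO replicate 2 or 6 or sham none replicate 2 or 6. Of 16 glycolytic genes 4 rose and 5 fell. The rises were the inducible members Hk2 (1.12 ± 0.17), the regulator Pfkfb3 (0.93 ± 0.16), the lactate exporter Slc16a3 (1.24 ± 0.20) and the glucose transporter Slc2a1. The falls were Hk1, Eno2 and the phosphofructokinases Pfkl, Pfkm and Pfkp, from -0.63 to -0.32. With the 12 sham arrays alone Eno2 and Pfkm did not pass (limma adjusted p = 0.128 and 0.0908), and Eno2 did not after quantile normalization (0.0554).

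Genes of protein folding and turnover gave more rises than falls, by small differences. Of 18 endoplasmic reticulum chaperone genes 7 rose and 1 fell: Sdf2l1, Creld2 and P4hb differed by 0.91 ± 0.17, 0.89 ± 0.15 and 0.84 ± 0.13, and Sel1l, of the degradation machinery, by -0.31 ± 0.10, which did not pass with the 12 sham arrays alone (limma adjusted p = 0.0576). The central chaperone Hspa5 did not pass (0.24 ± 0.13). Of 20 genes of the amino acid stress response 8 rose and 2 fell, with an even 5 and 5 after centring, and Ddit3, the pro-apoptotic factor CHOP, led at 0.85 ± 0.17. Proteasome subunits gave 7 rises and 0 falls of 21, with 14 rises after quantile normalization, 4 after centring and 11 without the injured EPO array of lowest median. The largest was Psmb6 at 0.62 ± 0.12, and ribosome biogenesis gave 7 rises, 4 after centring, and 0 falls of 18, with Myc at 1.67 ± 0.24 and the nucleolar protein Gnl3 at 0.84 ± 0.17. Only 12 of 35 listed cytosolic ribosomal proteins had a row of their own, of which 4 rose, and such genes have many near-identical copies, so their values are uncertain.

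Ion channel genes were lower. Of 31 potassium channel genes 20 fell and 1 rose, with a median of -0.56, and of 20 sodium, calcium and HCN channel genes 15 fell and 0 rose, with a median of -0.65. Kcnn2, a small-conductance calcium-activated channel, ran from 7.33 to 8.46 (median 7.90) in sham EPO arrays, against 8.85 to 9.40 (median 9.09) in sham none arrays. Scn8a, the sodium channel of the axon's initial segment, ran from 7.46 to 8.21 (median 7.65) in sham EPO arrays, against 8.36 to 8.82 (median 8.72) in sham none arrays. Both were apart between groups, at -1.24 ± 0.15 and -0.95 ± 0.16. Kcnk4, a mechanosensitive leak channel, and Scn3b, a sodium channel beta subunit, differed by -1.23 ± 0.14 and -0.88 ± 0.12. The potassium channel that rose was Kcnn4, found on microglia and other blood-derived cells, by 0.47 ± 0.09.

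Receptors for fast transmitters fell alongside. Of 13 ionotropic glutamate receptor genes 10 fell and 0 rose (median -0.58). Grin2a, the NMDA receptor subunit that replaces Grin2b as the brain matures, ran from 7.39 to 8.53 (median 7.97) in sham EPO arrays, against 8.89 to 9.65 (median 9.28) in sham none arrays. Gria1, the AMPA receptor subunit, ran from 9.37 to 9.98 (median 9.65) in sham EPO arrays, against 10.59 to 10.99 (median 10.70) in sham none arrays. They were 2.68-fold and 2.1-fold lower without overlap, and Grik4, a kainate receptor subunit of hippocampal field CA3, 2.26-fold. Of 13 GABA and glycine receptor genes 6 fell and 1 rose. Gabra5, the subunit behind tonic inhibition in pyramidal cells, ran from 8.60 to 8.99 (median 8.89) in sham EPO arrays, against 9.99 to 10.39 (median 10.19) in sham none arrays, and Gabra2 differed by -1.03 ± 0.14. The rise was Glra3, a glycine receptor subunit, which ran from 3.45 to 6.56 (median 5.92) in sham EPO arrays, against 3.52 to 4.23 (median 3.63) in sham none arrays. In that gene 1 sham EPO array lay below every sham none array and 4 lay above all of them (1.5 ± 0.42, adjusted p = 0.0117), and it did not pass in a limma fit of the 12 sham arrays alone (adjusted p = 0.0556).

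Of 26 receptor genes for monoamines, acetylcholine and metabotropic glutamate, 14 fell and 1 rose (median -0.55). Htr1a, the serotonin autoreceptor and pyramidal receptor, ran from 4.83 to 5.69 (median 5.33) in sham EPO arrays, against 6.0 to 6.80 (median 6.45) in sham none arrays, a difference of -1.12 ± 0.15. Chrna5, a nicotinic subunit, differed by -1.60 ± 0.31. The rise was Adora3, an adenosine receptor found on microglia in mice, by 0.59 ± 0.17 (limma adjusted p = 0.0119), which did not pass after quantile normalization (adjusted p = 0.0563) or centring (0.0647). Inside the cell, 19 of 29 enzymes of calcium, cyclic AMP and lipid second messengers fell and 2 rose. Itpka, Prkcb and Adcy9, a kinase for inositol trisphosphate, a protein kinase C and an adenylate cyclase, were 2.64-fold, 2.57-fold and 2.24-fold lower, and Camk2a, the calcium kinase of synaptic plasticity, differed by -0.99 ± 0.10.

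On both sides of the synapse the direction was the same. Of 32 vesicle release genes 22 fell and 0 rose, and of 21 postsynaptic scaffold genes 16 fell and 0 rose, with medians of -0.52 and -0.63. Sv2b, a vesicle glycoprotein, ran from 7.79 to 8.88 (median 8.29) in sham EPO arrays, against 9.51 to 10.02 (median 9.62) in sham none arrays. Homer1, which links metabotropic receptors to calcium stores, ran from 6.46 to 7.16 (median 6.96) in sham EPO arrays, against 7.68 to 8.29 (median 7.86) in sham none arrays. Neither gene overlapped between groups (-1.34 ± 0.17 and -1.01 ± 0.14). Unc13a and Cplx2, which prime and clamp vesicles, differed by -0.94 ± 0.19 and -0.93 ± 0.12, and the scaffold genes Dlgap3 and Dlgap1 by -0.87 and -0.81.

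Synaptic adhesion and axon guidance held some of the larger falls. Of 31 adhesion genes 15 fell and 0 rose, led by the protocadherin Pcdh20, which ran from 5.52 to 7.0 (median 6.10) in sham EPO arrays, against 7.52 to 8.13 (median 7.96) in sham none arrays. Cdh11 and Slitrk3 were 2.15-fold and 2.09-fold lower. Of 40 guidance genes 19 fell and 4 rose: Sema3e, a repellent ligand, and the receptors Epha6 and Epha4 differed by -1.36 ± 0.20, -1.36 ± 0.21 and -1.31 ± 0.22. The 4 rises were Efna1, an ephrin of endothelium that ran from 6.24 to 7.13 (median 6.47) in sham EPO arrays, against 4.87 to 5.45 (median 5.17) in sham none arrays, with Sema3d (0.66), Plxnd1 (0.60) and Sema3f (0.45). In limma Plxnd1 did not pass after centring (adjusted p = 0.0903), with array weights (0.0506) or with the 12 sham arrays alone (0.0704), nor did Sema3f after quantile normalization (0.157) or centring (0.12).

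Of 35 neuropeptide and peptide receptor genes 9 fell and 2 rose. Npy2r and Npy1r, receptors for neuropeptide Y, differed by -1.75 ± 0.27 and -0.92 ± 0.13, and Grp, gastrin-releasing peptide, by -1.36 ± 0.27. The interneuron peptides Npy and Sst did not pass (0.23 and 0.07), nor did Penk, at 1.12 ± 0.44. Of 23 transporter genes 8 fell and 3 rose. Slc17a7, the vesicular glutamate transporter of pyramidal cells, ran from 10.30 to 11.55 (median 11.13) in sham EPO arrays, against 11.83 to 12.09 (median 11.96) in sham none arrays, a difference of -0.93 ± 0.15. The vesicular transporters Slc17a6 of other glutamate neurons and Slc32a1 of inhibitory neurons did not pass (-0.16 and -0.16). The rises were the exchangers Slc7a7 and Slc1a5 (1.28 ± 0.18) and Slc7a2 (0.47 ± 0.15), the last not after centring (limma adjusted p = 0.0921) or with the 12 sham arrays alone (0.0788).

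Of 28 splicing factor genes 1 rose and 6 fell. The falls included the neuronal factors Rbfox1, Rbfox3 and Elavl2 (-0.87 ± 0.10, -0.71 ± 0.11 and -0.64 ± 0.11). The rise was Ptbp1, the repressor of neuronal exons, which ran from 7.93 to 8.37 (median 8.19) in sham EPO arrays, against 6.95 to 7.27 (median 7.20) in sham none arrays. Of 17 RGS genes, which shorten G protein signals, 6 rose and 2 fell as deposited, against 2 and 3 after centring. Rgs16 rose by 1.03 ± 0.10 while Rgs14 and Rgs8 fell by 1.05 ± 0.16 and 0.89 ± 0.12. Rgs14 is also in the list of CA2 and CA3 markers, of which 6 of 11 did not pass.

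Of 21 myelin and oligodendrocyte genes 4 rose and 0 fell, and the share of rises, 19.0%, was near the 15.8% over all genes. The list mean ran from 7.245 to 7.909 in sham EPO arrays and from 6.703 to 7.794 in sham none arrays. The rises were Nkx2-2 and Sox10 (1.02 ± 0.28 and 0.52 ± 0.13), Bmp4 and Cspg4, the last not after centring (limma adjusted p = 0.0951). The myelin genes Mbp and Mag did not pass (0.28 and 0.40). Of 41 Wnt, Notch and BMP pathway genes 14 rose and 2 fell, against 10 and 7 after centring, and 9 and 1 without sham none replicate 5. Id1 and Id3, targets of BMP signals, were 2.5-fold and 2.55-fold higher, and Wnt2 and Dkk3 were 1.72-fold and 1.68-fold lower, Dkk3 not passing with the 12 sham arrays alone (limma adjusted p = 0.0947). Of 15 clock genes 4 rose and 0 fell, Nfil3 (1.21 ± 0.22), Cry1 (0.84 ± 0.12), Bhlhe41 and Bhlhe40, the last not after centring (limma adjusted p = 0.145), while Clock, Arntl and Per1 did not pass.

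Of 21 blood-brain barrier genes 9 rose and 3 fell, the rises including the glucose transporter Slc2a1. Cav1, of endothelial caveolae, ran from 8.36 to 9.21 (median 8.76) in sham EPO arrays, against 6.76 to 7.37 (median 7.22) in sham none arrays. Vwf, von Willebrand factor, and Icam1, which captures leukocytes, were 3.02-fold and 2.86-fold higher. The carriers Tfrc for iron-loaded transferrin, Slco1c1 for thyroid hormone and Mfsd2a for lipids fell by 0.74 ± 0.21, 0.72 ± 0.15 and 0.51 ± 0.09. The junction genes Ocln and Cldn5 did not pass (-0.01 and 0.56).

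Markers of hippocampal fields were lower unevenly. Their median list means in sham none arrays were 8.67 for CA1, 7.60 for CA2 and CA3 and 7.25 for the dentate gyrus. Cortical and thalamic markers stood at 7.19 and 6.35 there, so level alone does not tell the hippocampus from neighbouring tissue. Of 7 measured CA1 markers 4 fell and 0 rose: Fibcd1, a marker of CA1 pyramidal cells, ran from 5.46 to 6.72 (median 5.87) in sham EPO arrays, against 7.60 to 8.38 (median 8.14) in sham none arrays, a 4.33-fold fall, and Mpped1 differed by -0.92 ± 0.15, whereas Wfs1 and Zbtb20 did not pass. Of 11 CA2 and CA3 markers 5 fell and 0 rose, against 8 falls after quantile normalization and 9 after centring, with Nptx1 at -1.16 ± 0.12. The other 6 did not pass as deposited, and the 11 differences ran from -1.18 to 0.31. Of 13 dentate markers 4 fell, among them the granule cell factor Prox1 (-0.99 ± 0.25), and 1 rose, Npnt (0.57 ± 0.18), which did not pass after centring (limma adjusted p = 0.0651). Leaving out sham EPO replicate 1, sham EPO replicate 4 or sham none replicate 6 brought these 5 calls to 3, 2 and 3. The neuroblast genes Dcx, Sox11 and Igfbpl1 did not pass (-0.33, 0.12 and 0.01).

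Markers of tissue that a dissection may carry along gave mixed counts. Thalamic markers had 2 rises and 2 falls of 9, which came to 2 calls without sham EPO replicate 2, 3 or 4 or sham none replicate 3 or 6. Cortical markers had 2 and 2 of 10, 2 calls without sham EPO replicate 6, with Nr4a2 at -1.41 ± 0.27 and Foxp2 at 0.90 ± 0.19. None of 8 choroid plexus markers passed in limma, 1 had an unadjusted p under 0.05 and 1 passed without sham none replicate 4, but their levels varied: Ttr, transthyretin, ran from 12.75 to 13.16 (median 13.01) in sham EPO arrays, against 6.52 to 12.95 (median 12.74) in sham none arrays, where the low value was sham none replicate 5. The mean of the 8 markers ran from 6.81 to 7.70 in sham EPO arrays and from 4.90 to 8.07 in sham none arrays. Of 13 markers of leptomeninges and fibroblasts 6 rose and 0 fell, the list mean running from 7.58 to 8.13 in sham EPO arrays and from 6.60 to 7.79 in sham none arrays. Aldh1a2, which makes retinoic acid there, led at 2.47 ± 0.37, while Dcn, an abundant fibroblast gene, did not pass (0.16 ± 0.22).

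Blood cell markers differed by cell. Of 13 neutrophil markers 8 rose and 0 fell, the list mean running from 3.99 to 5.13 in sham EPO arrays and from 3.31 to 3.56 in sham none arrays. Lcn2, lipocalin 2, which reactive astrocytes also make, ran from 8.85 to 10.73 (median 9.45) in sham EPO arrays, against 3.34 to 3.90 (median 3.62) in sham none arrays, a 66.2-fold rise. Its difference of 6.05 was the largest of the list, whose median difference was 0.77, so Lcn2 weighs heavily in the list mean. The granule genes Mpo, Elane, Ltf, Camp and Ngp did not pass, with differences from -0.06 to 0.17. S100a8, a cytosolic neutrophil protein, ran from 2.68 to 5.75 (median 3.41) in sham EPO arrays, against 2.32 to 2.77 (median 2.49) in sham none arrays, and did not pass with the 12 sham arrays alone (limma adjusted p = 0.0774). Cxcr2, the neutrophil chemokine receptor, differed by 0.78 ± 0.21. Of 12 lymphocyte markers 1 rose, Cd79b (0.49 ± 0.17), a call that 10 of the 12 single arrays ended when left out, with adjusted p up to 0.105, and that was not made after quantile normalization or centring. Of 6 erythroid markers 1 fell. The part of leptomeningeal or neutrophil cells in the immune and vascular classes was not tested.

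**Figure D4:**
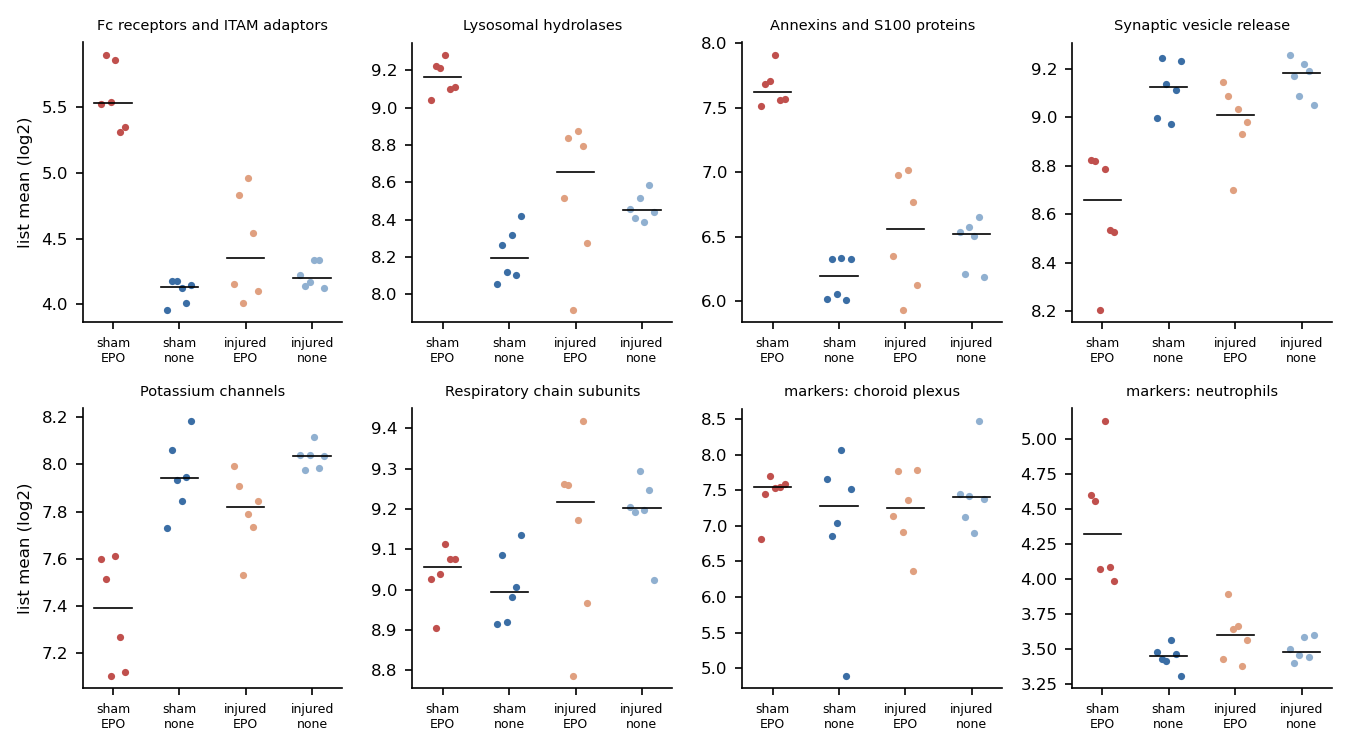
Mean log2 value of the measured members of 8 lists (y axis) on each array (points), with group medians (lines), for sham EPO, sham none, injured EPO and injured none arrays. Sham EPO arrays lie above sham none arrays, without overlap, in the Fc receptor, lysosomal, annexin and neutrophil lists. In the neutrophil list Lcn2 weighs heavily. They lie below sham none arrays, without overlap, in the vesicle and potassium channel lists. In the choroid plexus list 1 sham none array lies low at 4.90.

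Genes close to EPO signalling were checked by name. Epor, the EPO receptor, ran from 4.80 to 5.14 (median 4.96) in sham EPO arrays, against 4.75 to 5.20 (median 5.10) in sham none arrays, and the ranges overlapped fully (-0.08 ± 0.10, limma adjusted p = 0.68). Epo itself, which would not report an injected protein, did not pass either (0.11 ± 0.11). Cish, a target of STAT5, ran from 5.51 to 5.96 (median 5.84) in sham EPO arrays, against 5.15 to 5.71 (median 5.42) in sham none arrays, and passed narrowly at 0.38 ± 0.12 (adjusted p = 0.0318). After centring Cish stood at 0.21 (adjusted p = 0.183), and 8 of the 12 single arrays ended its call when left out. Socs3, a feedback inhibitor that cytokines induce mainly through STAT3, ran from 7.30 to 8.34 (median 7.77) in sham EPO arrays, against 5.24 to 5.70 (median 5.58) in sham none arrays, a 4.82-fold rise with no overlap.

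The difference between the sham groups was not the difference between the injured groups. The interaction, the sham difference minus the injured difference, passed the threshold in 1696 of 23238 rows (7.30%), among them 1487 of the 14807 genes (10.0%). The pairs share no array. Of the 1186 mid-size rises 814 had an interaction past the threshold (68.6%), their median being 0.88 in the sham pair and 0.02 in the injured pair, and 656 had the same sign in both. Of the 701 mid-size falls 260 had one (37.1%), their median being -0.78 in the sham pair and -0.24 in the injured pair, and 679 had the same sign in both. With the title code as a fixed block 902 rows had an interaction past the threshold. Positive and negative interactions numbered 1336 and 360 as deposited, 935 and 1239 after centring, and 1126 and 497 without the injured EPO array of lowest median, so the balance between rises and falls here depended on scaling and on that array. The mid-size genes were chosen by their difference in the sham pair, so a smaller one in the injured pair follows in part from the choice. Under the other reading of the titles the same interaction sets injury without EPO against injury with EPO.

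Single genes showed the range. Il4ra averaged 5.46 in injured EPO arrays and 5.16 in injured none arrays, for an interaction of 2.12 (limma adjusted p = 6.21e-06). Lcn2 averaged 4.73 and 4.01 there, for an interaction of 5.33 (7.73e-06). Scn8a and Gabra5, both lower in sham EPO, had interactions of -0.41 (adjusted p = 0.314) and -1.10 (0.00103), so of these only Gabra5 was shown to differ between the pairs. The mean of the Fc receptor class ran from 5.31 to 5.89 in sham EPO arrays, 3.96 to 4.18 in sham none arrays, 4.01 to 4.96 in injured EPO arrays and 4.12 to 4.34 in injured none arrays.

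**Figure D5:**
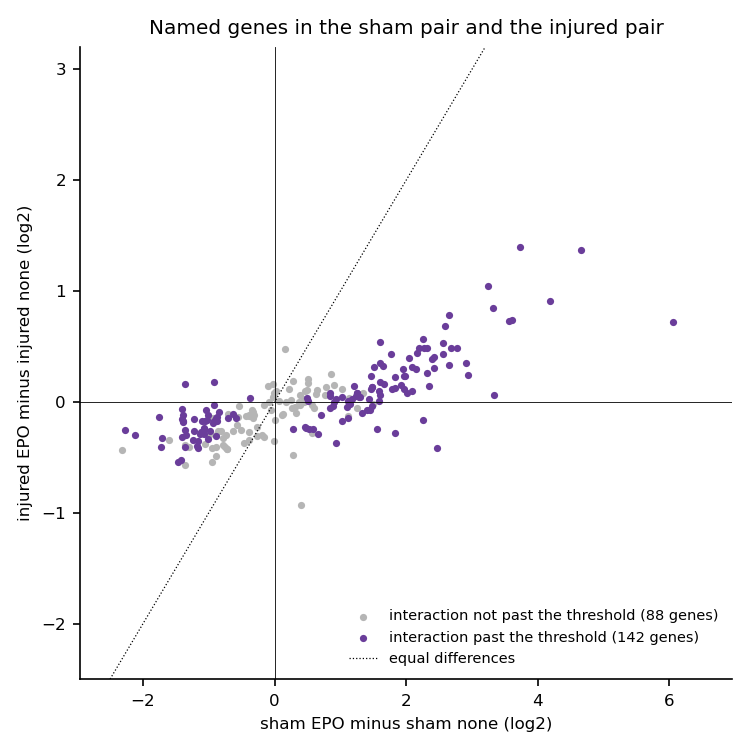
Difference in the injured pair (y axis, injured EPO minus injured none, log2) against the difference in the sham pair (x axis, sham EPO minus sham none, log2) for the genes named in the text, with purple points where the interaction passed the threshold and a dotted line of equal differences. Rises past the threshold in the sham pair lie below the line, Lcn2 the farthest to the right, and falls past it lie above the line, in a set chosen by the sham pair.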

How the data were processed

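RNA from each right hippocampus went onto 1 Affymetrix exon array after biotin labelling, per the labels' protocols. The authors deposited log2 expression values. The submitters' processing notes name RMA and Affymetrix Expression Console, without versions, summary level or annotation. RMA corrects background, equalises probe quantiles and summarises probes, and it shrinks differences near background. Rows were named from the platform annotation. Of 23238 rows 14939 carried 1 symbol, and a gene is its row with the highest mean.

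The fit, in limma 3.58.1 (R 4.3.3), gave each of the 4 groups a mean over all 24 arrays and left 20 residual degrees of freedom. Benjamini-Hochberg adjustment ran over all rows, with a threshold of 0.05. Every adjusted p in the text is limma's. On simulated data of 23238 rows made for this comparison the fit found 53% of 1.5-fold and 86% of 2-fold changes. Those data had independent noise and changes in far fewer rows than the 19.1% called here. The adjustment depends on that share, so these rates do not give the recovery in the real comparison.

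Members and lists were chosen with earlier results of these data known. Named are the 15 mid-size rises and 15 mid-size falls of smallest p with groups apart, up to 3 rises and 3 falls of each list by size, marker list members, and Epor, Epo, Cish and Socs3. Other list members were named with their values seen. Promoters came from RefSeq (GRCm38.p6). Groups follow the sample characteristics, and replicate numbers, given in accession order, pair no mice. The Y-linked gene Eif2s3y was high in 3 of 6 arrays of each sham group, and its level as a covariate was tried, as were other scalings, filters, variance models, the title code and leaving out arrays. One of the 41 functional classes is not reported here.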

Additional observations from a re-analysis of the deposited data

Results flagged for a closer look

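An array stood apart from the other 5 of its group in 17 of 462 groups of named genes, its gap to the next as a share of the range being over Dixon's critical value for 6 samples. Chance gives about 1 in 20, or 23.1 here. Low in sham EPO were Ctsc at 8.70 in replicate 1 (next 9.30), Ddit3 at 5.50 in replicate 5 (next 6.14), Nfil3 at 6.34 in replicate 6 (next 6.99), Paqr9 at 7.46 in replicate 3 (next 7.73), Unc13a at 6.85 in replicate 3 (next 7.96) and the mean of the choroid plexus markers at 6.81 in replicate 1 (next 7.45). High in sham EPO were Epo at 3.24 in replicate 1 (next 2.73) and Tspan4 at 8.41 in replicate 3 (next 8.20). Low in sham none were Alox5ap at 5.34 in replicate 1 (next 5.66), Cav1 at 6.76 in replicate 5 (next 7.15), Gusb at 5.65 in replicate 1 (next 5.87), Plin2 at 6.05 in replicate 5 (next 6.56) and Ttr at 6.52 in replicate 5 (next 12.67). High in sham none were Cd40 at 4.30 in replicate 1 (next 4.0), Jph1 at 7.51 in replicate 6 (next 7.32), Mpo at 3.95 in replicate 1 (next 3.69) and Rbfox1 at 10.17 in replicate 6 (next 10.03). The widest gap was that of Ttr, the choroid plexus gene.

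The difference between sham EPO and sham none differed from that between injured EPO and injured none in 1696 rows by the interaction in limma, among them 142 of the genes named in the text. These genes were chosen by their difference in the sham pair, so this share is a description.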

How the results depend on the processing

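Of 196 named genes past the threshold, 191 stayed past it after quantile normalization, 185 after centring, 187 with the 12 sham arrays alone, 171 with the title code as a fixed block and 117 within code 3D, and in the first 4 settings none changed sign. The count of calls moved by over 1.5 times in 4 of the 51 lists after quantile normalization, 8 after centring and 14 with the code as a block. Within code 3D, with 2 arrays a sham group, 862 rows, 619 mid-size genes and 168 list genes passed, and Dkk3 (0.04) changed sign. With the code as a fixed block the interaction passed in 902 rows. Leaving out each sham array in turn gave 3819 to 4303 rows, 1712 to 1993 mid-size genes, 489 to 524 list genes and 1330 to 1806 interactions. It ended the call of 15 named genes for at least 1 array, with adjusted p up to 0.121: Bhlhe40, Cd79b, Cish, Cspg4, Dkk3, Eno2, H2-Aa, Ndufs1, Npnt, Pfkm, Plxnd1, Sel1l, Sema3f, Slc7a2 and Tubb2a. No paired analysis was possible because replicate numbers follow accession order and pair no mice. The number of arrays and the low signal of dim rows limit the counts, and signal over background was not part of the table. The causes of these shifts were not tested, and the fits that leave some arrays out also hold fewer arrays.

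With the titles read the other way (labelled injured none minus sham none), 0 rows, 0 mid-size genes and 0 list genes passed in limma, 1803 rows had an unadjusted p under 0.05, and 79 of the 196 genes had the opposite sign, none past the threshold. Rises as labelled read -0.16 for Socs3, -0.11 for Atf3, -0.09 for Irf8, -0.06 for S100a8, -0.05 for Cd79b, Fos and H2-Ab1, -0.04 for Mmp12, -0.03 for Fcgr4, -0.02 for Cd14 and Syk, -0.01 for Cxcr2 and Il4ra. Falls as labelled read 0.00 for Atp6v1g2, Plppr4 and Slc17a7, 0.03 for Nptx1 and Paqr9, 0.04 for Eno2, 0.05 for Camk2a, Cdh11, Hk1, Rbfox3 and Sel1l, 0.06 for Dlgap1, Dusp8 and Rbfox1. Others read 0.07 for Adcy9, Cds1, Itpka, Mmd, Pfkm and Scn8a, 0.08 for Itgbl1, Kcnn2, Ndufs1, Npy2r and Pfkp, 0.09 for Chrna7, Gabra5 and Scn3b, 0.10 for Cplx2, Fibcd1, Tmem150c and Vldlr, 0.11 for Fgf13, Gabra2, Grin2b, Pcdh20, Prox1 and Slitrk3. Next came 0.12 for Adam23, Egr3 and Grik4, 0.13 for Dkk3 and Rgs8, 0.14 for Elavl2, Pfkl and Sema3e, 0.15 for Ifngr2 and Tuba4a, 0.16 for Kcnk4. Then came 0.17 for Slc7a10 and Tfrc, 0.18 for Epha4, Epha6, Hpca, Jph1 and Slco1c1, 0.19 for Prkcb, 0.22 for Nefl, 0.23 for Unc13a. Higher values were 0.24 for Spred2, 0.25 for Rgs14, 0.29 for Mfsd2a and Neurod6, 0.36 for Chrna5, 0.37 for Tubb2a. The highest was 0.58 for Wnt2.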

Other observations

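Rows without a single gene symbol were not named. Of 8299 such rows 551 passed the threshold (6.64%), 329 higher and 222 lower in sham EPO, and their median level was 3.6, against 6.28 in rows with 1 symbol. The spread between mice also differed by group: the median SD over rows was 0.216 in sham EPO arrays, 0.215 in sham none arrays, 0.273 in injured EPO arrays and 0.19 in injured none arrays. Title codes 3D, 3E and 3F each held both sham groups, with 2 and 2, 1 and 1, and 1 and 1 arrays. Of the 196 named genes past the threshold, 190 had the same sign within each of the 3 codes. These arrays are part of the fit that chose the genes. Where the groups did not overlap the sign within a code was fixed, so the count is a description.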
